A study of Mus musculus with 4 samples.

Results

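The genes described here were 10 regulators of the exit of cardiomyocytes (CMs) from the cell cycle, taken by symbol from the 27998 genes in the count files. They were the homeobox factors Meis1 and Meis2, the kinase inhibitors Cdkn1a (p21), Cdkn1b (p27) and Cdkn1c (p57), the D cyclins Ccnd1, Ccnd2 and Ccnd3, their partner kinase Cdk6, and the pocket protein gene Rb1. All 10 were found in the files, and all passed the filter on low counts in the comparisons of CMs. Nuclei were isolated from frozen right ventricles (RVs) of wild-type C57/BL6J mice at P21. At P7 the mice had received either a sham operation or a fistula between the abdominal aorta and the inferior vena cava, which causes RV volume overload (RVVO). There were 2 sham and 2 RVVO libraries, given in the order sham 1, sham 2, RVVO 1 and RVVO 2 throughout, and the sources used here do not say whether a library was 1 mouse or a pool. Nuclei with Ryr2, the sarcoplasmic calcium release channel of CMs, at 1% or more of their unique molecular identifiers (UMIs) were taken as CMs. This rule took 2318, 2800, 2669 and 3717 nuclei, 11504 of the 42977 kept.

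The libraries held 51010039 to 64739206 UMIs in 8700 to 15568 barcodes. The median CM had 4768, 4844, 8335 and 4816 UMIs, and the median of the other nuclei was 1851, 1697, 3496 and 2723. Between 28 and 70 barcode sequences were shared by each pair of libraries. The transcripts of Xist had 1425, 1483, 0.804 and 0.678 counts per 1000000 UMIs (CPM), and those of Uty had 0.119, 0.0553, 322 and 317 CPM. Both sham libraries thus carried female and both RVVO libraries male transcripts, and in all values below the sexes and the operations cannot be told apart. Of the 11504 nuclei taken by the Ryr2 rule, 10155 lay in clusters named from CM markers, 144 in clusters named macrophages, and 1084 in clusters without a name. The other 7 CM markers, summed with Ryr2, had 75219, 76590, 68590 and 67062 CPM in these nuclei. Since Ryr2 chose the nuclei, part of this sum was fixed by the rule. Between 422 and 1290 nuclei per library lay near the limit, with Ryr2 from 0.8% to 1.25% of UMIs. Pooled over the libraries and within the clusters named CMs, Meis2 had 519 CPM in the nuclei just under the limit and 522 CPM in those just over it, and Ccnd3 had 36.3 and 43.9 CPM.

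In a dividing cell, D cyclins bind Cdk4 or Cdk6, and the complex phosphorylates the Rb protein, which then releases E2F factors for the genes of S phase. The CIP/KIP inhibitors, which are the products of the Cdkn1 genes, bind cyclin and kinase complexes and hold the cell in G1. Mouse CMs leave the cell cycle in the first days after birth, and Meis1 is known in this tissue as a factor that favours that exit and acts through Cdkn1a and the INK4 inhibitors. Meis2 is its close relative, and both bind DNA with PBX partners. The comparisons below ask where these regulators were measured in the RV at P21 and whether their levels in CMs differed after RVVO.

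Promoters were read from RefSeq sequences of GRCm38.p6, over the 250 bases before each annotated start. Windows were given for 6 of the 10 genes, 8 windows in all, with a pair of starts each for Cdkn1a and Ccnd3. Cdkn1a is shown because it is a known target in the Meis1 pathway, and Ccnd3 because it had the largest difference between CMs and other nuclei. Both genes are on the plus strand of chromosome 17, at chr17:29090976-29100727 and chr17:47505051-47599691 of GRCm38. Capitals mark the GC box, GGGCGG or its reverse complement CCGCCC, the short motif that SP factors bind.
Cdkn1a, first start, chr17:29090729-29090978, plus strand: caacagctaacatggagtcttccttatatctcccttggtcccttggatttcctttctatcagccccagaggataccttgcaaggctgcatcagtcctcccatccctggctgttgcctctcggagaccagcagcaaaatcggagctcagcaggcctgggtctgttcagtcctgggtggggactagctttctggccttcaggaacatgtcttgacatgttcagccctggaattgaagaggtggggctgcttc
Cdkn1a, second start, chr17:29093519-29093768, plus strand: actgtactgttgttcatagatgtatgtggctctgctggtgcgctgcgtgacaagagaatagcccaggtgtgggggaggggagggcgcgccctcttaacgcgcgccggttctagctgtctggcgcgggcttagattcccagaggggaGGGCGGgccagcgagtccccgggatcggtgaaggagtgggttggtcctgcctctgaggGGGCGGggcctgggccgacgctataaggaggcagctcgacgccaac
Ccnd3, first start, chr17:47504801-47505050, plus strand: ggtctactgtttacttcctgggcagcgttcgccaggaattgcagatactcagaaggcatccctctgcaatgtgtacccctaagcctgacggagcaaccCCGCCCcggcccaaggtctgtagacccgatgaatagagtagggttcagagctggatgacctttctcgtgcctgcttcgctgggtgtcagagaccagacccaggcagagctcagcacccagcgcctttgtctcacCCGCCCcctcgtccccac
The core that MEIS factors bind, TGACAG or its reverse complement CTGTCA, was in 0 of the 8 windows, and 15.9% of the 32851 windows of the same length in the table held it. The GC box was in 4 of the 8 windows, those of Cdkn1b, of the second start of Cdkn1a and of both starts of Ccnd3, against 32.7% of all windows. A match is a run of letters and not a measured binding site.

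Meis2 was the member with the most UMIs in CMs. Its level in CMs was 554, 437, 469 and 519 CPM (495 ± 52.0, SD, n = 4 libraries). The RVVO values lay between the sham values. Among the lineages, Meis2 was highest in epicardial cells, at 1113 ± 55.4 CPM (SD, n = 4), above every library of CMs. CMs came next and overlapped in range with fibroblasts (404 ± 24.0 CPM, SD, n = 4). Endothelial cells (269 ± 69.0), pericytes (266 ± 18.4), smooth muscle cells (219 ± 43.1), macrophages (186 ± 106) and glial cells (167 ± 61.9) followed, each overlapping in range with the next. The endothelial lineage was mixed. Its nuclei in clusters named endocardial (1162 ± 187 CPM) and lymphatic (708 ± 111 CPM) lay above every library of CMs. Meis1 had 178, 158, 222 and 178 CPM in CMs (184 ± 27.4, SD, n = 4). It was highest in epicardial cells and fibroblasts, whose ranges overlapped at 416 ± 53.1 and 397 ± 5.71 CPM, with pericytes below them at 311 ± 23.4 CPM. CMs came after pericytes and overlapped with macrophages (156 ± 70.3 CPM), and endothelial cells were lowest at 94.8 ± 22.3 CPM. The macrophage lineage was mixed as well. Without a cluster of deep macrophage nuclei, described below, macrophages had Meis1 at 71.0 ± 6.68 CPM and Meis2 at 53.2 ± 6.52 CPM. Both genes there lay below every library of CMs.

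Transcripts of CM markers were also counted in the other nuclei, which sets a limit to the reading of low values there. The CM markers other than Ryr2 stood in endothelial cells that are neither endocardial nor lymphatic at 25.3% to 39.1% of their CM level. Meis2 in those cells stood at 10.8% to 16.6% of its CM level, which is below the share of the markers and cannot be told apart from free RNA. Meis1 there stood at 31.1% to 38.8%, within the range of the markers.

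The CIP/KIP inhibitors were lower in CMs than in nearly every other lineage. How many of all genes were lowest in CMs was not computed, here or for the D cyclins and Rb1. By total UMIs, as in CPM, most genes called between CMs and other nuclei were lower in CMs, as given below. Cdkn1a, which p53 induces, had 18.9, 9.35, 24.1 and 11.1 CPM in CMs (15.8 ± 6.87, SD, n = 4), with a low and a high library in each group. It was highest in endothelial cells, at 109 ± 16.7 CPM, and its range in CMs overlapped with that in epicardial cells (25.6 ± 8.41 CPM). Cdkn1b, the inhibitor of resting cells, had 20, 22.0, 21.5 and 23.4 CPM in CMs (21.7 ± 1.40), the smallest spread of the 10 genes relative to its mean. All 7 other lineages were above it without overlap, from 55.3 ± 4.85 CPM in endothelial cells to 69.3 ± 17.6 CPM in glial cells, and these 7 overlapped in order. Cdkn1c, an imprinted gene, had 3.21, 2.29, 3.66 and 2.71 CPM in CMs (2.97 ± 0.596). It was at 52.5 ± 13.3 CPM in epicardial cells, 17.7-fold above CMs, and no library of any other lineage fell to the CM range.

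The D cyclins were lowest in CMs without overlap with the next lineage, and each had another lineage at the top. Ccnd1 had 5.56, 2.97, 4.65 and 3.87 CPM in CMs (4.26 ± 1.10, SD, n = 4) and was highest in glial cells (50 ± 16.9) and smooth muscle cells (49.1 ± 41.9), whose ranges overlapped. Ccnd2 had 24.7, 23.5, 24.1 and 28.3 CPM in CMs (25.1 ± 2.17) and was highest in smooth muscle cells (152 ± 12.7), epicardial cells (116 ± 31.5) and pericytes (108 ± 4.52). Ccnd3 had 35.6, 47.1, 109 and 47.1 CPM in CMs (59.7 ± 33.4), with RVVO 1 far above the other libraries. It was highest in macrophages, at 827, 958, 769 and 1093 CPM (912 ± 144), with glial cells next at 637 ± 22.6 CPM and no overlap between them. Endothelial cells (438 ± 44.1), pericytes (391 ± 28.5) and epicardial cells (385 ± 21.7) followed and overlapped in order.

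Rb1 and Cdk6 had different orders. Rb1 had 81.5, 77.8, 112 and 79.3 CPM in CMs (87.5 ± 16.1, SD, n = 4), below all other lineages without overlap. It was highest in macrophages (333 ± 64.8) and endothelial cells (290 ± 19.2), which overlapped. Cdk6 had 192, 202, 157 and 179 CPM in CMs (183 ± 19.5), in the middle of its order and overlapping with endothelial cells (182 ± 39.5). Pericytes were above all other lineages at 302 ± 15.5 CPM, and epicardial cells and fibroblasts were lowest at 152 ± 27.2 and 152 ± 14.3 CPM. The spans of Meis1, Ccnd1, Ccnd2, Ccnd3, Rb1, Cdk6 and Cdkn1c overlap genes on the opposite strand in the files. Bysl overlaps with Ccnd3 and Lpar6 with Rb1, for example. The sources do not say whether reads were counted by strand. Whether any counts of these genes came from such partners was not tested.

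**Figure D1:**
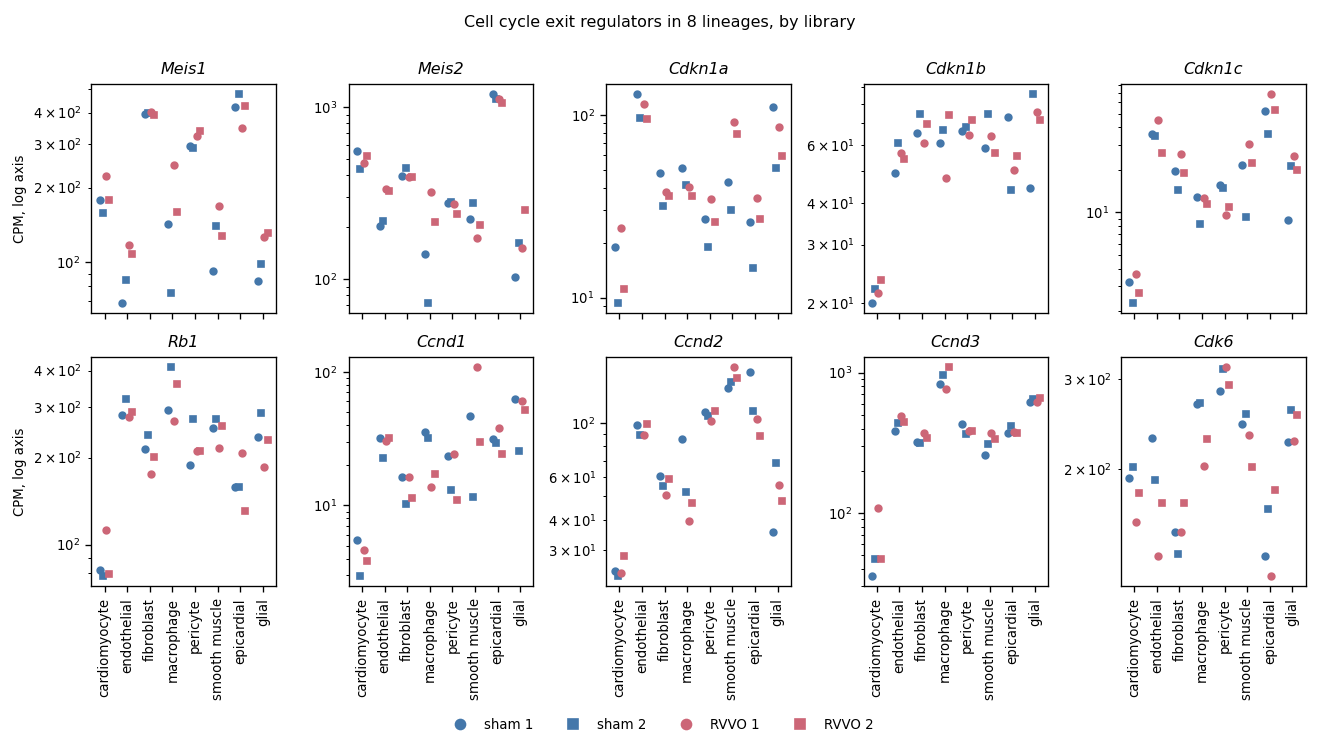
Level of each gene (CPM, log axis) in 8 lineages, 1 point per library, with sham in blue and RVVO in red. Cdkn1b, Cdkn1c, Ccnd1, Ccnd2, Ccnd3 and Rb1 lay lower in CMs than in every library of the other 7 lineages. How many of all genes did so was not computed. With scaling by total UMIs, as in CPM, most genes called between CMs and other nuclei were lower in CMs. Among the 8 lineages, with endothelial cells taken as 1, the mean of Meis2 in CMs was second to that in epicardial cells.

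CMs were then compared with all other nuclei of the same library by edgeR's quasi-likelihood test over 16806 genes, with the library as a block. The other nuclei were all those below the Ryr2 limit, among them 1473 in clusters named CMs and 6889 in clusters without a name. All 10 genes passed at an adjusted p of 0.05, 7 lower in CMs and 3 higher, and with another scaling, described below, 1 of the 3 stayed higher. Of all genes tested, 39.7% were lower and 37.5% higher, so that being called was common in this comparison. The largest differences were those of Ccnd3, at 368, 405, 543 and 483 CPM in the other nuclei and a log2 difference of -2.38 ± 0.195 (SE, adjusted p = 9.74e-05), and of Cdkn1c, at 26.7, 23.1, 25.5 and 19.6 CPM in the other nuclei (-2.34 ± 0.125, adjusted p = 2.43e-05). Both were lower in CMs in 4 of 4 libraries.

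The remaining 5 lower genes differed less. The log2 difference was -1.70 ± 0.103 for Ccnd1 (adjusted p = 3.58e-05) and -1.42 ± 0.192 for Cdkn1a (adjusted p = 0.000676). It was -0.96 ± 0.117 for Ccnd2, -0.84 ± 0.110 for Rb1 and -0.72 ± 0.0727 for Cdkn1b, with adjusted p from 0.000203 to 0.000611. The groups of 4 values did not overlap for any of these 5 genes, and for how many of all genes this held was not computed.

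Meis2 was the gene with the largest positive difference, at 273, 343, 345 and 390 CPM in the other nuclei (log2 difference 1.21 ± 0.115, SE, adjusted p = 0.000166). Cdk6, at 208, 187, 179 and 194 CPM in the other nuclei, had a difference of 0.57 ± 0.0790 (adjusted p = 0.00075), and Meis1, at 161, 213, 248 and 236 CPM, had 0.44 ± 0.0991 (adjusted p = 0.00694). These last 2 depended on the scaling. The trimmed mean of M values (TMM) set the median of all genes at -0.0385, and scaling by the total UMIs set it at -0.691. With totals, Meis1 was at -0.22 and Cdk6 at -0.08 on the log2 scale, neither passing the test, while Meis2 kept 0.55 and the 7 other genes stayed lower in CMs. By CPM, Meis2 was higher in CMs than in the other nuclei in 4 of 4 libraries, and Meis1 and Cdk6 were each lower in CMs in 3 of 4. With totals, the calls over all genes split into 3120 higher and 10567 lower, against 6301 and 6669 with TMM.

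**Figure D2:**
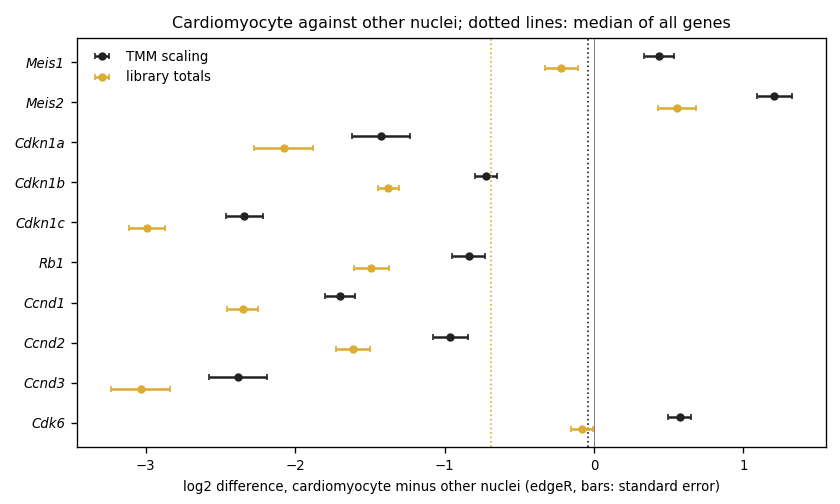
Log2 difference between CM and other nuclei for each gene (edgeR, bars SE, n = 4 libraries), with TMM scaling in black and scaling by total UMIs in yellow, and dotted lines at the median of all genes. Meis2 lies right of 0 under both scalings, Meis1 and Cdk6 change sign, and the other 7 genes lie left of 0 under both.

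Transcripts of other lineages were likewise counted in CMs. All shares that follow are levels in the clusters named CMs as a percent of the level in all other nuclei of the same library. The endothelial markers stood at 3.5% to 6.15%, those of macrophages at 4.84% to 8.03%, those of fibroblasts at 13.1% to 19.8% and those of pericytes, which include Abcc9, a potassium channel subunit also known in CMs, at 31.1% to 41.4%. Ccnd3 stood at 7.18% to 10.5% and Cdkn1c at 7.00% to 14.2%. The shares of Ccnd1 (14.2% to 21.5%) and Cdkn1a (14.8% to 36.5%) were higher, as were those of Ccnd2 (25.2% to 36.2%), Rb1 (28.0% to 38.2%) and Cdkn1b (33.2% to 39.3%). The shares of all 7 genes lay within the span of the 4 marker lists, which above 19.8% rested on the pericyte list alone. Ccnd2, Rb1 and Cdkn1b lay above the endothelial, macrophage and fibroblast lists in every library. What part of the low values in CMs was free RNA was not tested.

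The other genes of the pathway, 53 in 6 lists, were also compared between CMs and other nuclei. Among all genes tested, 37.5% were higher and 39.7% lower, against which the counts in these lists are to be read. Among the 8 E2F factors, 3 were higher in CMs and 5 lower. The activators E2f1 (-2.11) and E2f2 (-2.27) and the atypical E2f7 (-3.44) and E2f8 (-1.46), which act in S phase, were lower, as was E2f5 (-0.93). E2f6 (1.05), a repressor that does not need Rb, was higher under both scalings, while E2f3 (0.55) and E2f4 (0.35) turned negative with totals. Of the 4 INK4 inhibitors of Cdk4 and Cdk6, Cdkn2a (-3.00), Cdkn2b (-2.03) and Cdkn2d (-0.91) were lower, and Cdkn2c was at -0.37 without passing the test.

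Among the partners and relatives of the MEIS factors, 7 of 9 tested genes were lower in CMs, namely Meis3 (-0.62), Pbx2 (-0.94), Pbx3 (-0.73), Pbx4 (-3.31), Pknox1 (-0.69), Pknox2 (-1.70) and Tgif1 (-2.65). Tgif2 was at 0.03 without passing the test. The 10 genes of the pocket proteins and the DREAM complex, the repressor of cell cycle genes in resting cells, split into 4 higher and 4 lower, at the shares of all genes. Lin52 (1.34), Rbbp4 (0.37) and the E2F dimer partners Tfdp1 (0.71) and Tfdp2 (1.99) were higher, of which Rbbp4 was lower with totals (-0.28) and Tfdp1 did not pass (0.05). Lin54 (-0.75), Lin9 (-0.58), Mybl2 (-0.73) and the Rb relative Rbl1 (-2.26) were lower.

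Among 10 other cyclins and kinases, Ccnb2 (0.81), Ccnh (0.19) and Cdk7 (0.78) were higher. Ccnh was lower with totals (-0.46), and Ccnb2 and Cdk7 did not pass the test with them. The mitotic Ccnb1 (-1.39) and Cdk1 (-1.99) and the S phase kinase Cdk2 (-0.94) were lower. Among 10 upstream regulators, Foxo3 (1.04) and Mdm2 (0.26) were higher, of which Mdm2, the ligase that degrades p53, was lower with totals (-0.39). Cks1b (-1.06), Foxm1 (-1.88), Foxo1 (-0.70), Gsk3b (-0.34), Mycn (-2.08) and Skp2 (-1.58), the ubiquitin ligase subunit that marks p27 for degradation, were lower. A list of 20 genes of dividing cells had 17 lower in CMs and none higher, where 39.7% of all genes were lower, with a median of -1.81, against a median of -0.90 over the 10 regulators.

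The level of the regulators in CMs was then compared between RVVO and sham. None of the 10 genes passed edgeR's test over 14620 genes, of which 7 did (0.0479%). At an unadjusted p under 0.05 there was 1 of the 10, Cdk6, against 7.00% of all genes, and DESeq2 called 0 of the 10 and 94 genes in all. For Cdk6 the difference was -0.34 ± 0.133 on the log2 scale (SE, unadjusted p = 0.0469, adjusted p = 0.708), and both RVVO values (157 and 179 CPM) lay under both sham values (192 and 202 CPM). For the inhibitors the differences were 0.20 ± 0.484 (Cdkn1a), -0.02 ± 0.158 (Cdkn1b) and 0.10 ± 0.341 (Cdkn1c). For Meis1 and Meis2 they were 0.14 ± 0.153 and -0.12 ± 0.168, for Ccnd1 and Ccnd2 -0.11 ± 0.380 and 0.01 ± 0.167, and for Rb1 0.14 ± 0.186, with adjusted p of 0.884 or more. The groups did not overlap for Cdk6 and Ccnd3, 2 of the 10 genes, against 39.7% of all genes, and for Ccnd3 the nearest libraries of the groups, sham 2 and RVVO 2, were equal to the digits printed, at 47.1 CPM. The counts were smallest for Cdkn1c, with 41, 37, 104 and 58 UMIs over all CMs of a library, and for Ccnd1, with 71, 48, 132 and 83 UMIs.

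Ccnd3 had the largest difference in CMs, 0.80 ± 0.40 on the log2 scale (SE, adjusted p = 0.737), and it rested on RVVO 1. Without RVVO 1 it was 0.09, and without RVVO 2 it was 1.27 and passed the test (adjusted p = 0.0463), as did 258 genes. In RVVO 1, 107 nuclei that met the Ryr2 rule lay in clusters named macrophages, against 6, 6 and 25 in sham 1, sham 2 and RVVO 2. Their median was 34775 UMIs. They held 1971 of the 3097 UMIs of Ccnd3 in the CMs of that library (63.6%), 80.3% of those of the 10 macrophage markers and 63.5% of those of the 7 endothelial markers. Whether these barcodes held more than 1 nucleus was not tested.

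Within the clusters named CMs, Ccnd3 had 31.5, 42.6, 43.5 and 34.7 CPM, and the groups overlapped. The difference there was 0.01 on the log2 scale, with Ryr2 at 2% or more it was 0.04, with each nucleus thinned to 1000 UMIs it was 0.27, and with Ryr2 at 0.5% or more it was 1.14. The same 107 nuclei held 30.1% of the Rb1 UMIs of RVVO 1, 20.1% of those of Meis1 and 21.1% of those of Cdkn1a. For the remaining regulators their share ran from 16.6% (Meis2) to 34.6% (Cdkn1c). These nuclei were deep, and a share of UMIs also follows depth. In them Rb1 was at 191 CPM, Meis1 at 255 and Cdkn1a at 28.9, against 112, 222 and 24.1 CPM over all CMs of RVVO 1. In the CM clusters, Rb1 had 81.9, 74.6, 92.2 and 74.8 CPM, Meis1 had 181, 157, 214 and 176 CPM and Cdkn1a had 17.4, 8.50, 22.9 and 10.7 CPM. RVVO 1 remained the highest library for all these genes, and sham and RVVO overlapped.

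**Figure D3:**
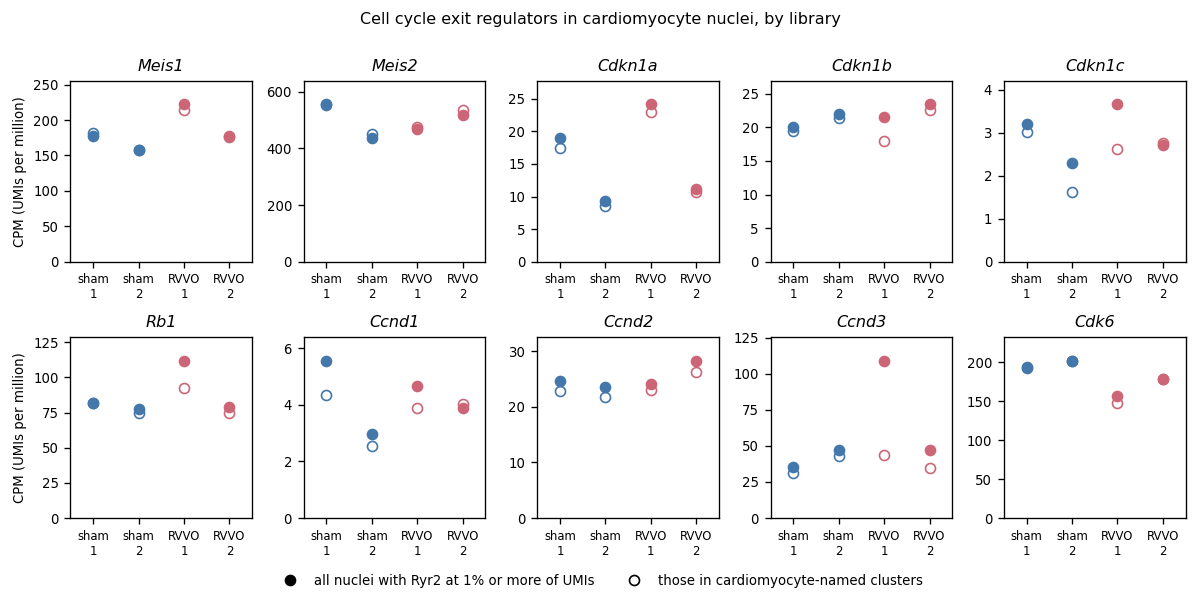
Level of each gene (CPM, axes from 0) in CM nuclei by library, with filled points for all nuclei that met the Ryr2 rule and open points for those in clusters named CMs. Ccnd3 in RVVO 1 falls from 109 to 43.5 CPM between the sets, the largest fall among the points shown.

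**Figure D4:**
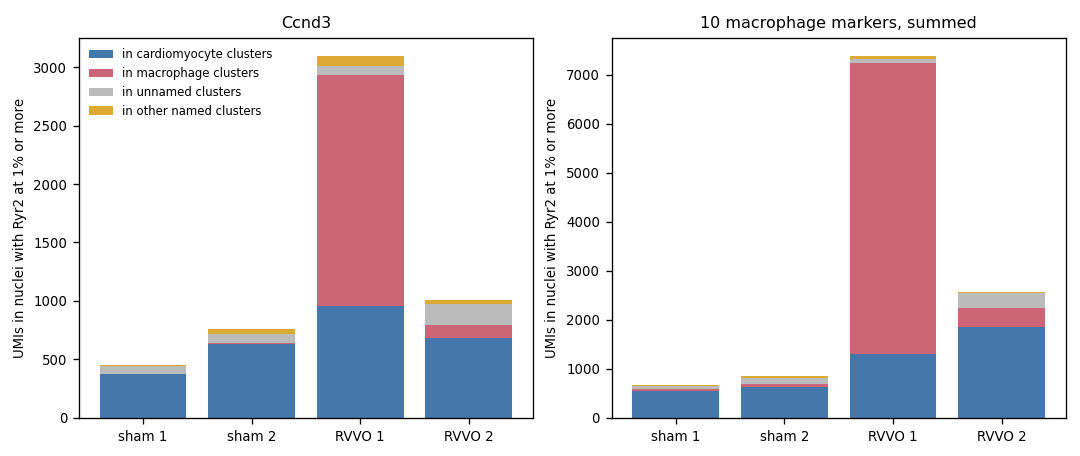
UMIs of Ccnd3 (left) and of the 10 macrophage markers (right) in nuclei that met the Ryr2 rule, stacked by the cluster in which the nuclei lay, 1 bar per library. In RVVO 1, the nuclei in macrophage clusters held 63.6% of the Ccnd3 UMIs and 80.3% of the marker UMIs.

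The difference between the RVVO effect in CMs and that in the other nuclei was tested as an interaction. By edgeR it was called for 0 of the 10 genes and for 0 of 16806 genes (0%), and an unadjusted p under 0.05 was found for 1 of the 10 and for 2016 genes in all. DESeq2 was not run on it. The lowest p was that of Ccnd2, at 0.47 ± 0.128 on the log2 scale (SE, unadjusted p = 0.0131, adjusted p = 0.393). Ccnd2 had 24.7, 23.5, 24.1 and 28.3 CPM in CMs and 90.6, 82.5, 63.5 and 73.7 CPM in the other nuclei. The other nuclei were a mix of lineages, and whether a shift in that mix entered this value was not tested. Without RVVO 2, however, 1101 genes were called, among them Ccnd3 (0.80) and Cdkn1a (0.89).

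The share of CMs with at least 1 UMI of a gene was taken after thinning each nucleus to 1000 UMIs. It was 36.9%, 32.2%, 34.2% and 37.5% for Meis2, 15.4%, 12.8%, 18.7% and 14.9% for Meis1, and 16.0%, 17.5%, 13.6% and 15.8% for Cdk6. The groups overlapped for Meis1 and Meis2 and not for Cdk6. Ccnd3 was found in 3.5%, 4.94%, 6.07% and 4.44% of CMs, and Cdkn1a in 2.66%, 1.24%, 2.51% and 1.18%. For Cdkn1c the share was 0.262% to 0.399%, and for Ccnd1 0.412% to 0.932%, so that these genes were missed in nearly all CMs at this depth. With 2 libraries a group, an exact permutation test (two-sided) cannot give a p under 0.33, which Cdkn1b and Cdk6 reached. How many of all genes reached it was not computed, and by CPM in CMs the groups did not overlap for 39.7% of all genes.

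In endothelial cells, Meis1 and Meis2 had higher values in both RVVO libraries than in both sham libraries, and neither passed the test over all genes. Meis2 had 202, 218, 332 and 324 CPM (log2 difference 0.56 ± 0.118, SE, unadjusted p = 0.00242, adjusted p = 0.163), and Meis1 had 68.7, 84.6, 118 and 108 CPM (0.48 ± 0.140, unadjusted p = 0.0124, adjusted p = 0.303). Cdk6 had 230, 190, 135 and 171 CPM (-0.54 ± 0.167, unadjusted p = 0.0155, adjusted p = 0.331). The groups did not overlap for these 3 genes, nor for Ccnd3 (382, 435, 489 and 448 CPM). How many of all genes had no overlap in endothelial cells was not computed. Meis1, Meis2 and Cdk6 were the 3 of 10 with an unadjusted p under 0.05, against 9.90% of the 13487 genes tested. At the adjusted p, 0 of 10 passed, against 0.0816%. DESeq2 likewise called 0 of the 10 in endothelial cells, macrophages, fibroblasts and pericytes.

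The endothelial nuclei differed in makeup between the groups. Those in the cluster named endocardial, which lines the chambers, were 8.49%, 7.76%, 16.3% and 24.7% of endothelial nuclei (284, 269, 296 and 529 nuclei). In sums over a lineage, a larger share of 1 cell type and more RNA per cell cannot be told apart. Meis2 stood much higher in endocardial nuclei, at 1305, 1340, 1026 and 976 CPM, and in lymphatic ones, at 594, 633, 821 and 785 CPM, than in the remaining endothelial nuclei, at 63.6, 72.3, 69.3 and 56.1 CPM. The regulators were left out of the genes that formed the clusters. These differences between clusters are a description and were not tested.

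Within endocardial nuclei, both RVVO values of Meis2 lay under both sham values (-0.43 ± 0.174, SE, unadjusted p = 0.0344, adjusted p = 1), while over the whole lineage they lay above. In the remaining endothelial nuclei the difference was -0.17 ± 0.156. Meis1 had 206, 297, 281 and 245 CPM in endocardial nuclei (0.04 ± 0.221) and 55.3, 61.1, 76.8 and 59.7 CPM in the remaining ones (0.18 ± 0.164), with overlap in both. Cdk6 in the remaining endothelial nuclei was at a difference near that of the lineage (-0.51 ± 0.176, unadjusted p = 0.020, adjusted p = 0.585). These fits called 0 of the 10 genes, against 0.0730% of genes in endocardial and 0.164% in the remaining endothelial nuclei. They were chosen after the data had been seen. The share of all genes without overlap was not computed for these nuclei, and in CMs it was 39.7%. The shares with an unadjusted p under 0.05 in these fits are not given here.

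**Figure D5:**
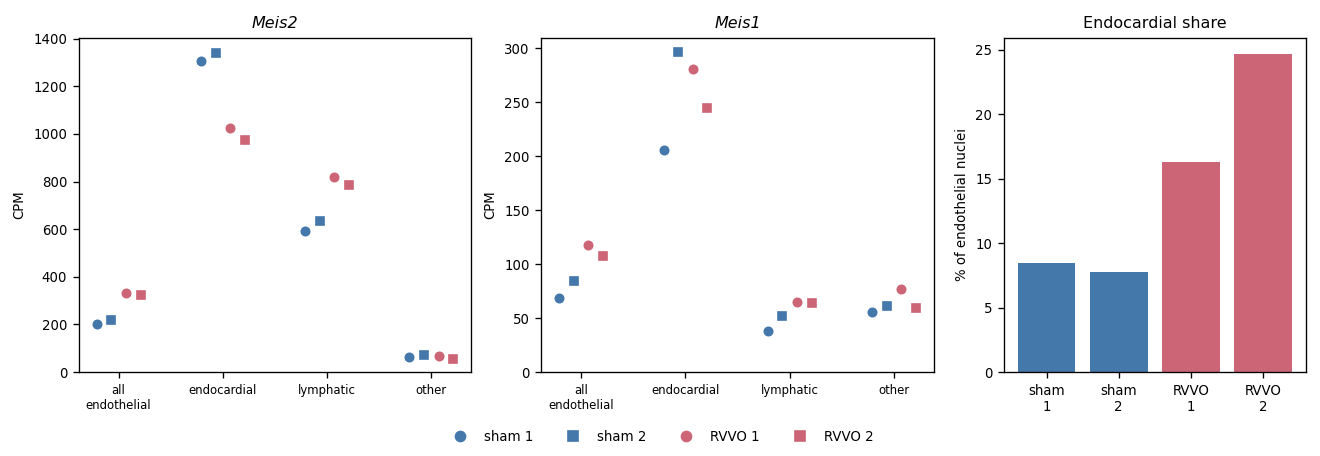
Level of Meis2 and Meis1 (CPM) in all endothelial nuclei and in the endocardial, lymphatic and remaining ones, 1 point per library, and the endocardial share (%) of endothelial nuclei. Meis2 was higher in both RVVO libraries over all endothelial nuclei, lower in both within the endocardial ones, and the endocardial share was 16.3% and 24.7% after RVVO. The share of all genes without overlap between the groups was not computed for these nuclei.

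In macrophages, the MEIS factors and Ccnd1 had the largest differences between RVVO and sham. None of these passed the test with the filter on low counts and no replicate block. With a block for the replicate number, by which no label links the libraries, Meis2 and Meis1 passed, as given below. Meis2 had 139, 72.3, 319 and 214 CPM (1.31 ± 0.413, SE, unadjusted p = 0.0228, adjusted p = 0.394, and 0.023 with no filter), Meis1 had 143, 75.6, 246 and 159 CPM (0.87 ± 0.415, adjusted p = 0.414), and Ccnd1 had 35.2, 32.1, 13.7 and 17.1 CPM (-1.16 ± 0.258, unadjusted p = 0.00577, adjusted p = 0.394). At an unadjusted p under 0.05 there were 2 of the 10 genes, against 12.6% of all genes, and 0 passed the adjusted p, against 0.0238%. A cluster of deep macrophage nuclei, with a median of 7181 UMIs, made up 21.9%, 8.25%, 60.2% and 46.0% of them. In it Meis2 was at 242, 183, 344 and 280 CPM, which is 41.9% to 73.4% of the CM level where the CM markers were at 13.4% to 34.6%. The macrophage markers lay on average 1.95 above other cell types on the log2 scale in this cluster, against 3.58 in the other cluster named macrophages. Whether its barcodes held more than 1 nucleus was not tested. Without this cluster, Meis2 had 46.4, 53.8, 50.7 and 61.9 CPM (0.16 ± 0.260) and Meis1 had 64.5, 66.2, 75.3 and 78.1 CPM (0.21 ± 0.233). In those nuclei Meis2 stood at 8.38% to 12.3% and Meis1 at 33.9% to 44.0% of the CM level, against 25% to 45.7% for the CM markers. The fit without the deep cluster was chosen after the data had been seen.

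Ccnd3 had a larger difference without the deep cluster than with it. Over all macrophages it was at 827, 958, 769 and 1093 CPM (0.03 ± 0.259). Without the deep cluster it was at 909, 997, 1736 and 1480 CPM (0.74 ± 0.222, unadjusted p = 0.00719, adjusted p = 0.479), with no overlap between the groups. The share of all genes without overlap was not computed for these nuclei, and in CMs it was 39.7%. The share with an unadjusted p under 0.05 in this fit is not given here. Ccnd1 without the deep cluster was at -0.92 ± 0.403 (adjusted p = 0.682). In fibroblasts, 0 of the 10 genes were called (0.101% of all genes) and none had an unadjusted p under 0.05 (4.30% of all genes), the lowest being that of Rb1 (-0.29 ± 0.132, unadjusted p = 0.0607). In pericytes, likewise, 0 were called (0.0811%) and none had an unadjusted p under 0.05 (4.40%). The largest difference there was that of Cdkn1c, at -0.58 ± 0.375.

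Macrophages also held dividing nuclei, which allowed the regulators to be compared between dividing and other nuclei of the same library. Dividing nuclei had 2 or more UMIs of the 20 dividing cell genes, none of which is a regulator described here. These UMIs were counted before thinning, so that deeper nuclei could meet the rule more readily. There were 63, 122, 185 and 172 of them, and every nucleus was thinned to 1000 UMIs. Ccnd3 had 460, 746, 811 and 1017 CPM in dividing nuclei and 958, 1052, 1524 and 1410 CPM in nuclei with none of those UMIs, a log2 difference of -0.71 ± 0.133 (SE, adjusted p = 0.00134). It was lower in dividing nuclei in 4 of 4 libraries, and without the deep cluster the difference was -0.70 and passed the test.

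Meis2 was higher in dividing macrophages (127, 32.8, 259 and 215 CPM) than in the others (75.3, 55.8, 120 and 101 CPM), at 0.87 ± 0.234 on the log2 scale (SE, adjusted p = 0.0298), in 3 of 4 libraries. This call was lost without thinning (0.61) and without sham 1 (0.91, adjusted p = 0.0823), RVVO 1 (0.73, adjusted p = 0.200) or RVVO 2 (0.73, adjusted p = 0.262), and it held without sham 2 (1.03). Without the deep cluster, Meis2 no longer had enough counts to be tested, with 11 UMIs in 266 dividing and 49 UMIs in 946 other nuclei. Pooled over the libraries this was 41.4 CPM in dividing and 51.8 CPM in other nuclei, so that the higher level in dividing nuclei was not seen there. Of the 8 regulators tested, Ccnd3 was thus called lower and Meis2 higher, against 1.74% and 2.35% of the 5624 genes. The other 6 lay between -0.29 ± 0.164 (Rb1) and 0.30 ± 0.225 (Meis1), with Cdkn1a at 0.11 ± 0.375 and Cdkn1b at 0.13 ± 0.340. Of the pathway genes, Rbl1 (1.73, adjusted p = 0.000906) and Pbx3 (0.74, adjusted p = 0.0113) were higher in dividing macrophages.

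Among CMs with 1000 UMIs or more, 52 of 2254, 95 of 2671, 206 of 2668 and 134 of 3717 nuclei met the same rule for dividing nuclei. The median CM had 4768, 4844, 8335 and 4816 UMIs, and deeper nuclei could meet the rule more readily. These counts were not compared between the groups. Whether the nuclei that met the rule were dividing was not tested, nor whether their UMIs of the dividing cell genes were free RNA. After thinning, Meis2 had 596, 516, 451 and 582 CPM in these nuclei, called dividing here for short. It had 520, 434, 429 and 508 CPM in CMs without such UMIs, so that it was higher in dividing nuclei in 4 of 4 libraries. Meis1 had 212, 158, 209 and 179 CPM in the dividing nuclei and 173, 145, 215 and 164 CPM in the others, higher in 3 of 4. Of Cdkn1a there were 6 UMIs in all dividing CMs together. Ccnd3 had 115, 31.6, 170 and 74.6 CPM in them, from 6, 3, 35 and 10 UMIs. In the others it had 37.8, 51.2, 53.6 and 48.3 CPM, so that it was higher in dividing CMs in 3 of 4 libraries. The rule was applied before thinning. Nuclei in macrophage clusters held 63.6% of the Ccnd3 UMIs of CMs in RVVO 1 before thinning, and how many of them met the rule for dividing nuclei was not counted. The values in dividing CMs were not tested. For how many of all genes they were higher in 4 of 4 or 3 of 4 libraries was not computed.

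For the surgery comparison in CMs, 0 genes of the 6 pathway lists passed the test. The gene with the lowest p in each list was Skp2 (1.11, unadjusted p = 0.0356), Lin52 (-0.30, 0.0649), E2f7 (1.35, 0.0846), Pknox1 (-0.24, 0.330), Cdk7 (-0.12, 0.406) and Cdkn2c (0.05, 0.894). The median over the 10 regulators was 0.06.

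Over the 8 lineages, the genes whose mean level followed that of a regulator most closely were searched among 12103 genes, by Pearson's r of the log2 level. For Meis1 these were Ring1 (0.980), Thumpd2 (0.977) and A730056A06Rik (0.957), and for Meis2 they included Wnt2b (0.957) and Gm10516 (0.940). For the inhibitors they were Fat4 (0.976), Kif26a (0.975) and Shroom4 (0.959) with Cdkn1a, Mysm1 (0.993), Ssb (0.988) and Cers5 (0.987) with Cdkn1b, and Tubb2a (0.992), Bcr (0.986) and Zfp423 (0.982) with Cdkn1c. For the D cyclins they were Asl (0.972), Tmco1 (0.964) and Atg4a (0.953) with Ccnd1, Ssrp1 (0.962), Pced1b (0.957) and Pgrmc1 (0.955) with Ccnd2, and Gpr137b-ps (0.984), Cbfb (0.984) and Grn (0.978) with Ccnd3. Rb1 was followed by Wrn (0.987), Ssu72 (0.986) and Dennd5a (0.981), and Cdk6 by Htr7 (0.947), Ube2e3 (0.930) and Adrbk2 (0.911). The 8 points of each r share the 4 libraries, their depth and their free RNA, so these values are a description.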

How the data were processed

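Single-nucleus RNA was measured in 2 sham and 2 RVVO libraries (10x 3′ v3). The matrices deposited by the authors hold UMI counts per gene and barcode, whole numbers without normalization. The submitters' processing notes name GRCm38, Cell Ranger 3.0.1, STAR and Seurat 3.0.2, and the file headers name Cell Ranger 5.0.0. Positions came from GENCODE M21 on GRCm38.

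Barcodes were kept with 200 genes or more and a mitochondrial share of UMIs under 10%, and the highest doublet scores by Scrublet's method, 0.8% per 1000 barcodes, were removed. Nuclei were grouped by Leiden clustering (2000 variable genes, 30 components, 15 neighbours, resolution 1) into 29 clusters, named from marker lists, so that a name means like that cell type. The regulators, the pathway and dividing cell genes, and sex, mitochondrial and ribosomal transcripts were not among the variable genes. The thresholds for naming were set with the clusters in view. UMI counts were summed per library and lineage and given as CPM. Sums were tested with edgeR 4.0.16 in R 4.3.3 (quasi-likelihood test, TMM, filter on low counts, Benjamini-Hochberg adjustment over all genes, called at 0.05), with DESeq2 1.42.0 as an alternative. The SD covers only the spread between libraries, which may be technical. Each SE came from edgeR's fit, where the spread between libraries is estimated with the help of all genes and counting noise enters. The edgeR test was tried on simulated data with known changes. These data were drawn with the spread that edgeR had fitted, so the trial cannot show how the test does where its model fails. Python 3.11.15, numpy 2.4.6, scipy 1.17.1, scikit-learn 1.9.0 and leidenalg 0.10.2 were used for the other steps.

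The 10 regulators, the pathway lists and the markers were chosen with earlier results of these data known. Named genes were the 10 regulators, the pathway genes that passed a test or else the gene with the lowest p of each list in CMs, and the 3 genes most like each regulator over lineages, among genes with at least 10 CPM in a lineage. Results for 2 genes that this rule names are not reported here.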

Additional observations from a re-analysis of the deposited data

How the results depend on the processing

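With library totals in place of TMM, CMs against other nuclei had 1 regulator higher (Meis2), Cdk6 at -0.08, Meis1 at -0.22, and 3120 genes higher and 10567 lower. DESeq2 called 94 genes for surgery in CMs, 218 in endothelial cells, 46 in fibroblasts, 91 in macrophages and 13 in pericytes. No filter on low counts gave 24, 142, 198, 616 and 106 in the same order, with 1 regulator (Meis2) in macrophages. The library numbers of the groups share only a number, with correlations of 0.0183 in CMs and 0.304 in macrophages. With a replicate block, 4 genes were called in CMs, 45 in endothelial cells, 5 in pericytes and 827 in macrophages, there with 2 regulators, Meis2 (adjusted p = 0.0255) and Meis1 (adjusted p = 0.0465), and the block changed no other call of a regulator. Among values that were not called, Ryr2 at 2% put surgery in CMs at 0.31 for Ccnd1 and -0.32 for Cdkn1c, and thinning put Cdkn1b at 0.19, or 0.17 within CM clusters. Endocardial nuclei alone (7 genes called) had Ccnd2 at 0.07, Cdkn1a at 0.34, Meis2 at -0.43 and Rb1 at 0.03, and the remaining endothelial nuclei (21 genes) had Cdkn1b at 0.08 and Meis2 at -0.17. Macrophages without the deep cluster (9 genes) had Rb1 at 0.15. Dividing macrophages without thinning had 418 genes higher, 451 lower and 0 regulators higher, and without the deep cluster 36 lower, 0 regulators higher and Cdk6 at -0.18, and with 1 UMI as the limit Ccnd2 was at 0.19. Without thinning, 5 regulators did not overlap between groups in the share of CMs. The matching share over all genes was not computed for this count, nor for the counts with each library left out below. The cause of the shifts in this paragraph was not tested.

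Leaving out each library gave 6 to 258 genes and 0 to 1 regulators called for surgery in CMs, 44 to 203 genes in endothelial cells, 7 to 114 in fibroblasts, 0 to 162 in macrophages and 8 to 91 in pericytes. The interaction had 0 to 1101 genes and 0 to 2 regulators, dividing macrophages 81 to 139 genes higher, 51 to 88 lower and 0 to 1 regulators higher, and the shares 4 to 8 regulators without overlap. For the shares, a library left out sets 1 library against 2, and such groups fail to overlap more readily than 2 against 2. All 10 calls of CMs against other nuclei remained in every fit with a library left out. The sign turned for Ccnd3 in the interaction (-0.09 to 0.80, called only without RVVO 2) and for values that no such fit called. Those that turned by more than their SE were Cdk6 (-0.30 to 0.04), Meis1 (-0.35 to 0.12), Meis2 (-0.52 to 0.04) and Cdkn1b (-0.00 to 0.19) in the interaction, Ccnd2 (-0.40 to 0.28) in dividing macrophages, Ccnd1 (-0.51 to 0.41), Meis2 (-0.30 to 0.07), Cdkn1a (-0.44 to 0.79) and Rb1 (-0.10 to 0.35) in CMs, Cdkn1c (-0.54 to 0.28), Cdkn1a (-0.41 to 0.07) and Ccnd1 (-0.15 to 0.41) in endothelial cells, Cdkn1a (-0.43 to 0.21) and Ccnd1 (-0.28 to 0.42) in fibroblasts, and Ccnd1 (-0.72 to 0.52) and Rb1 (-0.36 to 0.13) in pericytes.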

Other observations

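A cluster led by Kcnj3, Ryr3 and Fgf12 held 0, 113, 21 and 141 of the nuclei that met the Ryr2 rule in sham 1, sham 2, RVVO 1 and RVVO 2. Pooled over the libraries, the 6 atrial markers summed to 1829 CPM in it and to 93.0 CPM in the other CMs. Meis2 was at 68.5, 135 and 106 CPM in the 3 libraries that held such nuclei, and at 450, 471 and 532 CPM in the other CMs of those libraries. Ccnd2 was at 34.3, 45.2 and 55.8 CPM in it and at 23.2, 23.9 and 27.4 CPM in the other CMs. Meis1, at 206, 246 and 169 CPM, overlapped with the other CMs, at 156, 222 and 178 CPM. These values were taken after the clusters had been seen and were not tested.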
